A study of Homo sapiens with 15 samples.

Results

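TRIOBP, the TRIO- and F-actin-binding protein, was represented by 3 probes on the arrays, and TRIO, the guanine nucleotide exchange factor that it binds, by another 3. These are 2 of the 30484 gene names, and the 6 probes were found by name among 41000. TRIOBP was chosen because one of its probes had the highest induced ratio on the miR-574-3p arrays, so its values in that comparison are a description and carry no test. TRIO was included as the binding partner and not for its values.

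The cells were A549, an established human lung adenocarcinoma line. Some had been transfected with 20 nM of a synthetic precursor of 1 of 5 miRNAs (miR-574-3p, miR-181d, miR-766, miR-565 or miR-629*). Others had received 20 nM of an antisense oligonucleotide (antagomir) against the same miRNA, and RNA was taken at 24 h. Each dual-color array paired RNA of the overexpressing cells (Cy5) with RNA of the antagomir-treated cells (Cy3). There were 3 arrays per miRNA and 15 in all. No dye was swapped and both channels came from transfected cells, so that within 1 miRNA the effects of the precursor, the antagomir and the dye cannot be told apart in the ratio. The labels do not state whether replicates came from separate cultures, and the p-values measure the spread between arrays, which may be technical.

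TRIOBP is made in several isoforms. The short isoform, also called Tara, binds TRIO and stabilizes F-actin, whereas the long isoforms bundle actin filaments and form the rootlets of hair cell stereocilia, for which the gene is known in recessive deafness. TRIO activates small GTPases such as RAC1 and RHOA through separate exchange domains and thereby links receptors to actin remodeling, cell migration and axon guidance.

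The 3 TRIOBP probes lie on the plus strand of chromosome 22 (NCBI36 coordinates of the deposited files) and are ordered along the gene. A_24_P221885, at chr22:36450421-36450480, is annotated to transcript variant 6 (NM_001039141). A_23_P408328, at chr22:36485157-36485216, is annotated to variant 2 (NM_138632) and lies 34.7 kb downstream. A_23_P17855, at chr22:36498573-36498632 and a further 13.4 kb downstream, is annotated to variant 1 (NM_007032), and the accessions in the files place it in variant 6 as well but do not list variant 2. All 3 probes also list the mRNAs DQ228003 and DQ228005, so that they are not specific to separate transcripts. The files do not say which exon a probe is in. The sequences of the first and the last probe are shown whole because they are the TRIOBP probes with the lowest and the highest ratio, and the first 30 bases of the probe between them are given, with capitals marking the longest stretch complementary to miR-574-3p in the whole probes:
A_24_P221885: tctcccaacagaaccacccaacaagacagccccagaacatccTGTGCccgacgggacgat
A_23_P408328: tcctcagagtgcactgagatcccaggagga
A_23_P17855: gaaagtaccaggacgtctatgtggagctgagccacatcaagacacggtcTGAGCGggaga
These probes share no long stretch with each other, the longest run common to A_23_P17855 and A_23_P408328 being 8 bases. Their GC content was 58.3%, 60.0% and 55.0% in gene order, against a median of 41.7% over all probes.

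The TRIO probes are on the plus strand of chromosome 5. A_24_P42603 is at chr5:14452083-14452142 and A_23_P425880 at chr5:14561436-14561495, both annotated to NM_007118. A_24_P913431 lies 981 bp beyond the latter, at chr5:14562417-14562476, and is annotated to the cDNA AK131423.

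The mature miRNAs found in RefSeq (GRCh38.p14) are given with the seed, bases 2 to 8, in capitals. The form called miR-629* corresponds to hsa-miR-629-3p, and miR-766 and miR-565 are named only:
hsa-miR-574-3p: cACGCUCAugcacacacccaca
hsa-miR-629-3p: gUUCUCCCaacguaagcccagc
hsa-miR-181d-5p: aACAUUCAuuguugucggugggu
No seed was shared among them. The letters complementary to the miR-574-3p seed, TGAGCGT, were in none of the 6 member probes on either strand and in 0.132% of all 41000 probes (0.139% for the opposite strand). The longest stretch complementary to miR-574-3p was 6 bases in A_23_P17855, a length reached by 15.03% of all probes, and 5 bases in each of the other TRIOBP probes. The probes cover only a small part of each transcript, and sites elsewhere in the mRNA were not examined.

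All 6 member probes were well above background in both channels on all 15 arrays, with no spot flagged as an outlier or replaced by a surrogate, and all 6 passed the filter on dim probes that left 31349 probes for testing. Per array, 69.0% to 76.2% of probes were well above background in the overexpressing channel and 69.6% to 73.7% in the antagomir channel. The 8 epithelial and A549 markers examined had median signals from 169 (EPCAM) to 137423 (AKR1B10). Among leukocyte, endothelial and fibroblast markers, PTPRC, PECAM1, COL3A1 and DCN were not well above background while the medians were 11.7 for VWF, 35.5 for CD3E and 38.7 for COL1A1. Replicate 1 of miR-565 stood apart from the other arrays, and results that rest on it are given with and without it.

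To learn in which transfection TRIOBP differed, the processed signals of each channel were examined first. For A_23_P17855 the signals in antagomir-treated cells on the 3 miR-574-3p arrays were 356, 343 and 334, whereas on the 12 arrays with other miRNAs the lowest was 1553, the median 2048 and the highest 2663. In the overexpressing cells the miR-574-3p arrays gave 1528, 1843 and 1758, and the other 12 arrays 1374 at the lowest, 1907 at the median and 3385 at the highest. Thus, the 3 signals from cells given the miR-574-3p antagomir lay below all 12 others without overlap, while those from cells overexpressing miR-574-3p lay inside the range of the others. The probe was chosen for its ratio, and the share of all probes that separate in this way is not given here. The log2 ratios (overexpressing over antagomir) of this probe on the miR-574-3p arrays were 2.10, 2.43 and 2.40, with a fitted mean of 2.31 ± 0.10 (SE, n = 3), or 4.95-fold. In bulk RNA, fewer cells that express a gene and less RNA per cell cannot be told apart.

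**Figure D1:**
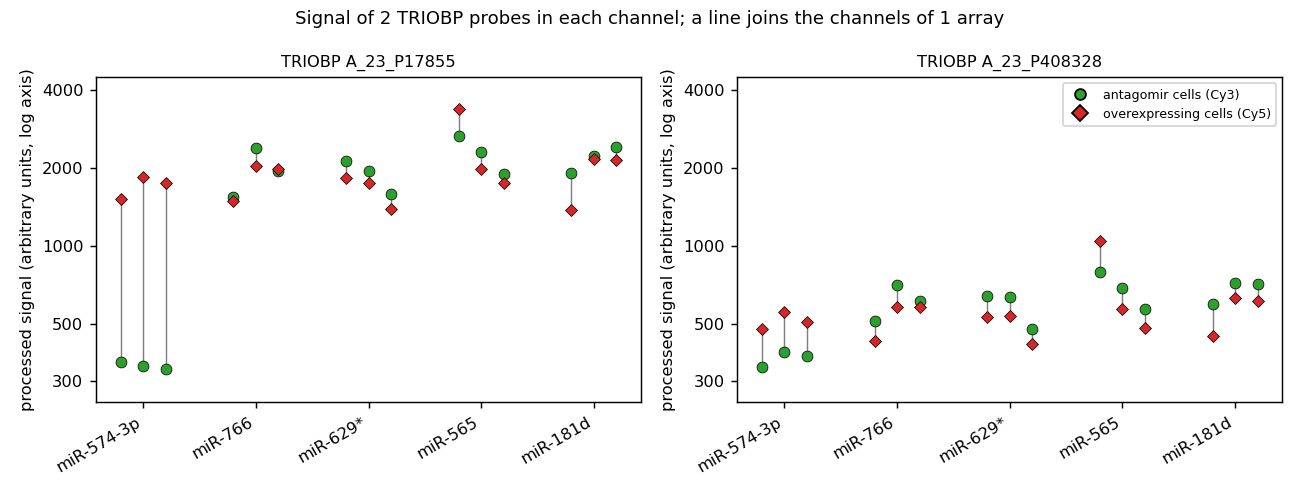
Processed signal (log axis, arbitrary units) of 2 TRIOBP probes by miRNA, with green circles for antagomir-treated cells (Cy3), red diamonds for overexpressing cells (Cy5) and a line joining the channels of each array. In A_23_P17855 the miR-574-3p arrays have antagomir signals of 334 to 356, below the 1553 to 2663 of the other arrays, while the red diamonds stay in 1 band.

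Each channel was then set against the other 12 arrays in the same dye, after quantile normalization. The antagomir signal of A_23_P17855 was lower on the miR-574-3p arrays by a log2 difference of -2.62 ± 0.07 (SE), or 6.16-fold, and the overexpressing signal differed by -0.18 ± 0.12. Against arrays of other miRNAs on the same slide the antagomir difference was -2.62 on slide 2 and -2.74 on slide 3. Over all probes, 8.7% of the antagomir signals were called in 1 direction or the other for miR-574-3p at an adjusted p under 0.05 (limma, Benjamini-Hochberg), and 0% of the overexpressing signals. Because TRIOBP was chosen from this contrast, nothing is read from these shares for TRIOBP.

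The probe 13.4 kb upstream had a smaller difference in the same channel. A_23_P408328 gave antagomir signals of 341, 389 and 375 on the miR-574-3p arrays, against 479 at the lowest, 640 at the median and 793 at the highest on the other 12. Its overexpressing signals were 476, 555 and 510, within the 419 to 1044 of the others. The groups again did not overlap in the antagomir channel and overlapped in the other, a separation for which no share over all probes is given. The log2 difference of the antagomir signal was -0.82 ± 0.05 (SE), or 1.76-fold lower, and its log2 ratios were 0.48, 0.51 and 0.44, with a mean of 0.48 ± 0.10 (SE).

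The first TRIOBP probe along the gene, A_24_P221885, was dim in both channels and scattered widely. Its antagomir signals on the miR-574-3p arrays were 25.4, 14.3 and 19.0, inside the 15.02 to 34.17 of the other 12 arrays except for the lowest one. Its overexpressing signals were 8.04, 16.5 and 19.8, against 8.39 to 39.0 on the others. The log2 ratios were -1.66, 0.20 and 0.06, giving a mean of -0.47 ± 0.42 (SE). Against the other arrays its antagomir signal differed by -0.34 ± 0.24 (SE) and its overexpressing signal by -0.38 ± 0.30 on the log2 scale. Leaving out replicate 1 turned the mean to 0.13.

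**Figure D2:**
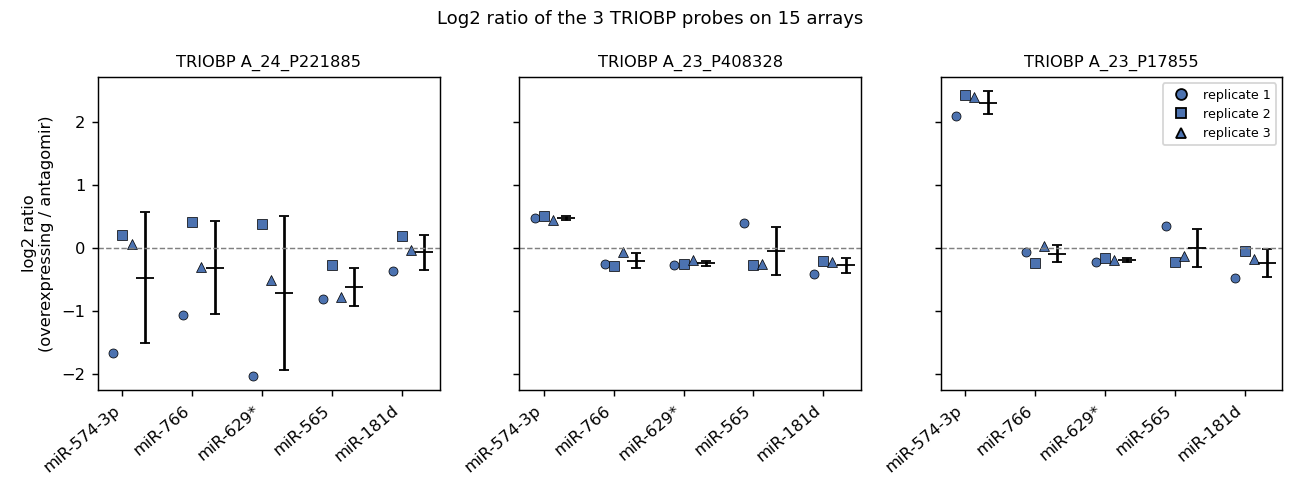
Log2 ratio (overexpressing over antagomir) of the 3 TRIOBP probes by miRNA, with 1 marker per array and the mean ± SD of 3 arrays beside them. A_23_P17855 stands at 2.10 to 2.43 on the miR-574-3p arrays, A_23_P408328 at 0.44 to 0.51, and A_24_P221885 ranges from -1.66 to 0.20.

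By the choice of TRIOBP, A_23_P17855 had the highest mean log2 ratio among induced probes of the miR-574-3p comparison. The next genes below it were FGFRL1 (2.16), a receptor of the fibroblast growth factor receptor family, and FOSL1 (2.06), a subunit of the AP-1 transcription factor. FOSL1 was dim, with a mean overexpressing signal of 25.5 on these arrays, against 317 for FGFRL1 and 1710 for A_23_P17855.

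Within an array, the ratios of A_23_P17855 and A_23_P408328 can be compared directly. The log2 ratio of A_23_P17855 minus that of A_23_P408328 was 1.62, 1.91 and 1.95 on the miR-574-3p arrays. On the 12 other arrays the same difference had a lowest value of -0.07, a median of 0.05 and a highest value of 0.20. Outside miR-574-3p, therefore, the probes gave nearly equal ratios on each array, and on the miR-574-3p arrays they differed several-fold. A_23_P17855 was chosen for its high ratio on the miR-574-3p arrays, so the difference there is a description and was not tested. Since the 3 probes share transcripts, the part of each variant in the signals cannot be told apart.

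Over the 12 arrays of the other miRNAs the ratios of the pair were correlated, with Pearson's r = 0.92 (permutation p = 8e-05, adjusted p = 0.0004) and Spearman's rho = 0.83 (permutation p = 0.00129, adjusted p = 0.00645), both two-sided and adjusted over the 5 relations of A_23_P17855 with the other member probes. Without the 2 arrays farthest from the median of A_23_P17855, replicate 1 of miR-565 and replicate 1 of miR-181d, r was 0.74 over 10 arrays. Within the 4 arrays of slide 1, which hold both of those arrays, it was 0.96, and the other slides held too few such arrays. The remaining 4 relations had r from -0.28 to 0.46 and adjusted p from 0.342 to 0.702 in the same permutation test, with A_24_P913431 at -0.28 over 12 arrays and -0.71 without those 2 arrays. All arrays share the normalization and the dye direction, and 3 arrays belong to each miRNA. The permutations shuffled single arrays, without regard to miRNA or slide. An r of this size was not particular to the pair. GRLF1 on chromosome 19, the gene most like A_23_P17855 over the 15 arrays, had r = 0.91 over the same 12.

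**Figure D3:**
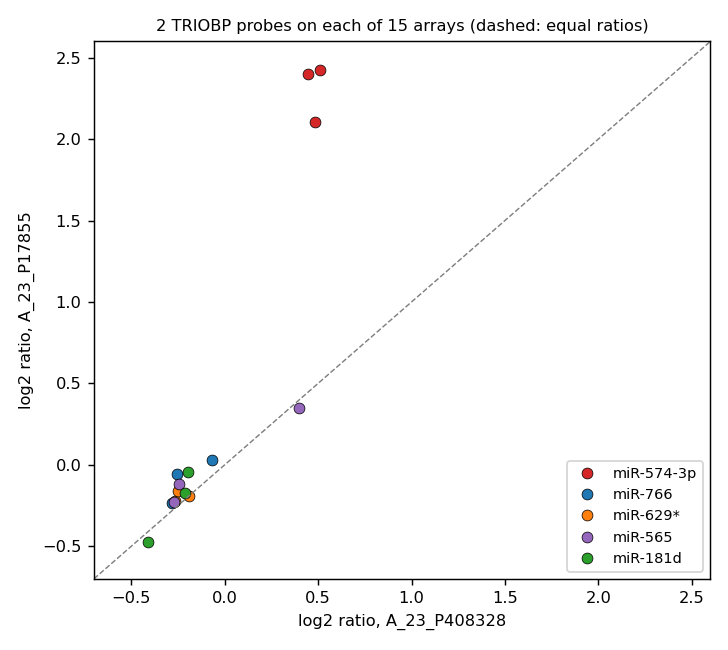
Log2 ratio of A_23_P17855 against that of A_23_P408328 on each of 15 arrays, colored by miRNA, with the dashed line marking equal ratios. The 12 arrays of the other miRNAs lie along the line within -0.07 to 0.20, and the 3 miR-574-3p arrays lie 1.62 to 1.95 above it.

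To see whether the TRIOBP ratio departed from 0 with the other miRNAs, the ratios were tested in limma over all 15 arrays. For A_23_P17855 the mean log2 ratios were -0.09 for miR-766, -0.19 for miR-629*, 0.00 for miR-565 and -0.23 for miR-181d, each ± 0.10 (SE, n = 3). None passed the test, with adjusted p of 0.750, 0.261, 0.995 and 0.216 in that order, and an unadjusted p under 0.05 was reached for miR-181d alone (0.0457). The individual values were negative on 10 of 12 arrays. The 95% intervals reached from -0.46 at the lowest to 0.23 at the highest. Among all probes tested, 1.53% were called higher and 0.711% lower for miR-766, 5.81% and 4.4% for miR-629*, 8.48% and 4.44% for miR-565, and 3.52% and 2.81% for miR-181d.

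A_23_P408328 showed small negative ratios with the same 4 miRNAs. Its mean log2 ratios were -0.20 for miR-766, -0.24 for miR-629*, -0.04 for miR-565 and -0.27 for miR-181d, each ± 0.10 (SE), with limma adjusted p of 0.353, 0.153, 0.795 and 0.133. The ratio was below 0 on 11 of the 12 arrays, the exception being replicate 1 of miR-565 at 0.40. On that array A_23_P17855 was also at its highest outside miR-574-3p, at 0.35, with overexpressing signals of 3385 for A_23_P17855 and 1044 for A_23_P408328. Without it all 4 ratios of A_23_P408328 passed the test, at -0.20 for miR-766 (adjusted p = 0.0113), -0.24 for miR-629* (0.00282), -0.26 for miR-565 (0.0105) and -0.27 for miR-181d (0.00128). Calls rose over all probes in that fit, where 7.35%, 14.6%, 7.13% and 12.7% were called lower in the same order. The miR-181d ratio of A_23_P17855, -0.23, then passed as well (adjusted p = 0.0436), while its miR-565 ratio became -0.17 (0.252). Whether these negative ratios belong to the dye or to the transfections cannot be told apart.

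A_24_P221885 had log2 ratios from -0.72 (miR-629*) to -0.07 (miR-181d) with these miRNAs, each ± 0.42 (SE), and none passed the test (adjusted p from 0.294 to 0.953).

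Whether any member differed among the 4 other miRNAs was asked with an F test in the same fit, in which a dye effect shared by all arrays cancels. An effect of the slide does not cancel. All miR-181d arrays were on slide 1, all miR-629* arrays on slide 3 and all miR-766 arrays on slide 4. These miRNAs and their slides therefore cannot be told apart. The TRIOBP probes ranged over 0.65 (A_24_P221885), 0.23 (A_23_P408328) and 0.23 (A_23_P17855) on the log2 scale between the highest and lowest miRNA and were not called. None of the 6 members was called, against 0.134% of all probes, and none had an unadjusted p under 0.05. With the slide as a block 4650 of 31338 probes were called, and again none of the 6 members. The same F test was made within each channel, with no miR-574-3p array in it. The antagomir signal of A_23_P17855 ranged over 0.10 on the log2 scale between the 4 miRNAs (adjusted p = 0.740) and its overexpressing signal over 0.25 (adjusted p = 0.649). No member was called in either channel, where 3.76% of antagomir signals and 0.102% of overexpressing signals were called among all probes, and no unadjusted p was under 0.05.

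TRIO had small ratios that differed between its probes. A_23_P425880 gave log2 ratios of 0.34, 0.24 and 0.37 on the miR-574-3p arrays, a mean of 0.32 ± 0.08 (SE), which passed the test (limma, adjusted p = 0.0461). Among all probes 2.78% were called higher and 2.59% lower for miR-574-3p. The mean ratios of this probe with the other 4 miRNAs lay between -0.08 and 0.08 and did not pass (adjusted p from 0.608 to 0.868). Its antagomir signals on the miR-574-3p arrays were 1234, 1487 and 1426, against 1151 at the lowest, 1659 at the median and 2118 at the highest on the other 12, so that the raw signals overlapped. After quantile normalization the antagomir signal was lower by -0.26 ± 0.05 on the log2 scale (limma, adjusted p = 0.0103), with differences of -0.32 on slide 2 and -0.18 on slide 3, and the overexpressing signal differed by 0.05 ± 0.10 (adjusted p = 0.981). The call of the ratio was lost with the slide as a block (adjusted p = 0.362) and when any 1 of the 3 miR-574-3p arrays was left out (0.168 to 0.248).

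The other TRIO probes did not share that pattern. A_24_P42603, about 109 kb upstream, had log2 ratios of 0.00, -0.02 and 0.04 on the miR-574-3p arrays, a mean of 0.00 ± 0.06 (SE, adjusted p = 0.985 in limma). On the other 12 arrays its ratio was above 0 throughout, from 0.00 to 0.35, and for miR-629* the mean of 0.24 ± 0.06 passed the test (adjusted p = 0.0316). A_24_P913431, which lies close to A_23_P425880, had a ratio above 0 on 14 of 15 arrays, with means from 0.11 (miR-766) to 0.23 (miR-629*). Only its miR-629* mean passed (0.23 ± 0.06, adjusted p = 0.0389), and the miR-574-3p mean was 0.22 ± 0.06 (adjusted p = 0.0645). In the F test over the 4 other miRNAs neither of these probes was called. Both miR-629* calls were lost with the slide as a block (adjusted p of 0.450 and 0.399) and when any 1 of the 3 miR-629* arrays was left out.

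**Figure D4:**
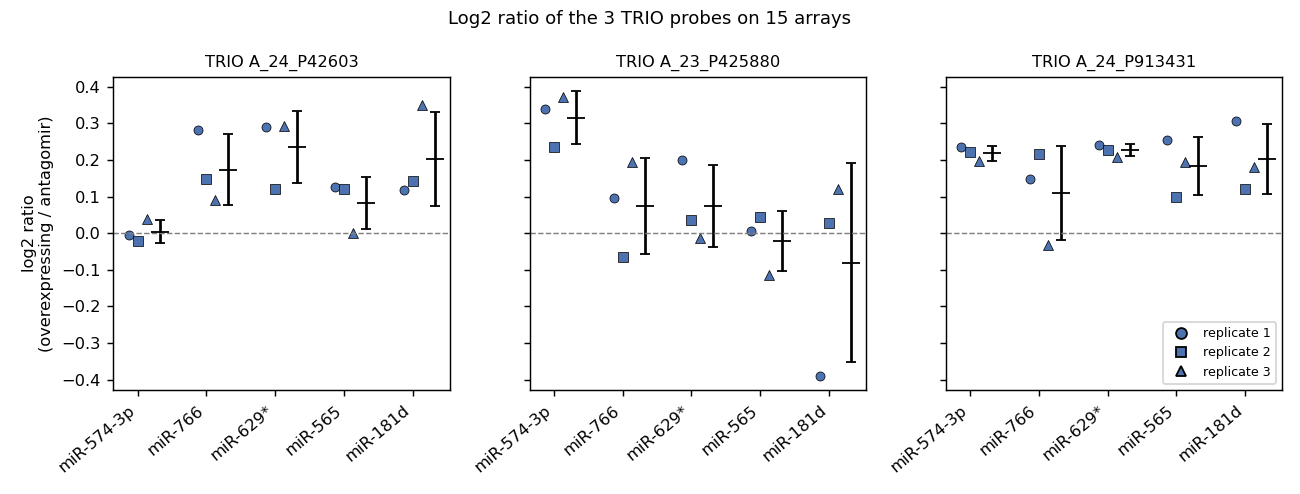
Log2 ratio (overexpressing over antagomir) of the 3 TRIO probes by miRNA, with 1 marker per array and the mean ± SD of 3 arrays beside them. A_23_P425880 is highest on the miR-574-3p arrays at 0.24 to 0.37, where A_24_P42603 lies between -0.02 and 0.04.

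The genes on both sides of TRIOBP were examined to see how far along the chromosome the ratio extended. Within 250 kb there were 33 probes of other names, of which 29 passed the filter on dim probes. On the miR-574-3p arrays their log2 ratios ran from -0.38 to 0.24 with a median of 0.04. None was called in limma (3 had an unadjusted p under 0.05), where 2.78% of all probes were called higher and 2.59% lower. The nearest tested probe, THC2515524 on the opposite strand 3.2 kb past A_23_P17855, had -0.13. NOL12, a nucleolar protein gene at -35.5 kb from the first TRIOBP probe, had 0.11, and H1F0, the gene of linker histone H1.0 that lies 34.5 kb after the last one, had 0.02. LGALS1, which encodes galectin-1, had 0.04, and GCAT, a mitochondrial enzyme of threonine breakdown, had -0.07. For the other miRNAs, 5 of the 29 were called higher and 1 lower with miR-565, 2 higher with miR-629*, 1 lower with miR-181d and none with miR-766 (2 at an unadjusted p under 0.05). Over all probes, 8.48% were called higher and 4.44% lower for miR-565, and 5.81% and 4.4% for miR-629*. These shares were 3.52% and 2.81% for miR-181d, and 1.53% and 0.711% for miR-766. Of the 29, the one lower with miR-181d was PDXP, a phosphatase that acts on cofilin and pyridoxal phosphate, at -0.47 (limma, adjusted p = 0.0426).

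**Figure D5:**
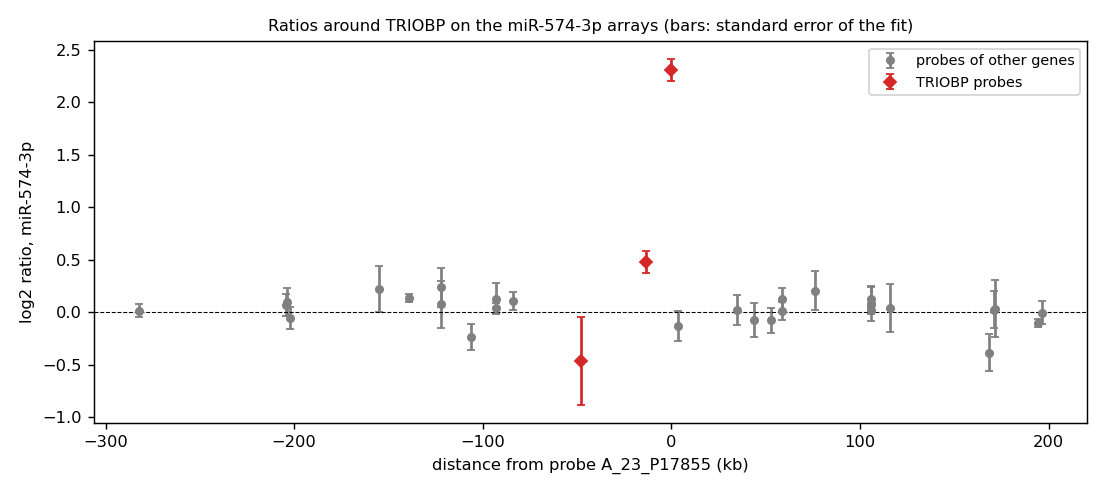
Mean log2 ratio with miR-574-3p (3 arrays), with its standard error, against the distance in kb from probe A_23_P17855. The red TRIOBP probes reach 2.31 and 0.48, while the grey probes of other genes lie between -0.38 and 0.24.

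Around TRIO, 13 of 14 probes of other names within 250 kb were tested and none was called for miR-574-3p (2 had an unadjusted p under 0.05 in limma). Over all probes, 2.78% were called higher and 2.59% lower for that miRNA. The 13 ratios ran from -0.30 to 0.78. One probe of FAM105B, 185.3 kb beyond TRIO, was called higher for each of the 4 other miRNAs, from 0.37 (miR-766) to 0.49 (miR-629*). It had -0.05 with miR-574-3p. The other FAM105B probe had 0.08 (miR-629*) to 0.26 (miR-565) and was called for none (limma, adjusted p from 0.0781 to 0.627). Of the 13, 1 was called higher and 0 lower with miR-766, and 2 and 1 with miR-629*. The counts were 2 and 2 with miR-565, and 1 and 0 with miR-181d. Over all probes the shares in that order were 1.53% and 0.711%, 5.81% and 4.4%, 8.48% and 4.44%, and 3.52% and 2.81%. The clone AY358688, at -56.9 kb from the first TRIO probe, was called lower for miR-629* (-0.85) and miR-565 (-0.98). AL390214, on the same strand between TRIO probes, had -0.81 and -0.97 with these miRNAs and was not called (limma, adjusted p of 0.155 and 0.0789). Distances run from the outermost probes and not from the ends of the gene, so that probes of other names may lie within it.

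The small GTPases and actin proteins with which TRIO and TRIOBP act were followed in 7 lists of 80 genes, 76 of which were tested through their brightest probe. On the miR-574-3p arrays 5 of 76 were called higher (6.58%, against 2.78% of all probes) and none lower (against 2.59%) (19 had an unadjusted p under 0.05 in limma, in either direction), and the median log2 ratio was 0.03 against 0.01 over all probes. The counts higher and lower were 4 and 0 for miR-766 (1.53% and 0.711% of all probes), 4 and 4 for miR-629* (5.81% and 4.4%), 10 and 6 for miR-565 (8.48% and 4.44%), and 6 and 7 for miR-181d (3.52% and 2.81%), with medians of 0.04 to 0.05. The miR-574-3p count was 1 with the slide as a block, where 0.587% of all probes were called higher and 0.329% lower, and 28 without replicate 1 of miR-565, where 11.4% and 10.8% were.

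Of the GTPases that TRIO acts on or through, RAC1, RHOA and RHOG were not called for any miRNA. RAC1 had log2 ratios from 0.01 to 0.05 and RHOG from -0.15 to 0.07. RHOA lay between 0.05 and 0.13, and its lowest adjusted p was 0.0636 (miR-181d). CDC42 lay between 0.01 and 0.18 and was not called either. Among 11 GTPases tested, RHOU, an atypical Cdc42-like GTPase, was called higher for miR-629* (0.30), miR-565 (0.28) and miR-181d (0.34), and RHOC (-0.20) and RHOQ (-0.52) were called lower for miR-181d. None of the 11 was called for miR-574-3p, where 3 had an unadjusted p under 0.05. Over all probes 2.78% were called higher and 2.59% lower there, so that no call in so short a list says little.

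Against 2.78% of all probes called higher and 2.59% lower, none of the 17 other exchange factors tested was called for miR-574-3p in limma. Of these, 2 had an unadjusted p under 0.05 for miR-574-3p. KALRN, the paralog of TRIO, had 0.28 ± 0.15 (SE) there and was called for miR-565 (0.58 ± 0.15, adjusted p = 0.0268). GEFT, now ARHGEF25, an exchange factor for RhoA, was called higher for miR-181d (1.52) and miR-565 (1.26), with the antagomir signal well above background on 1 and 2 of the 3 arrays. For miR-565, MCF2L was called higher (0.38) and ARHGEF2, a microtubule-bound exchange factor, lower (-0.33). Of the 16 effectors and inhibitors, ARHGAP1, a GTPase-activating protein of Cdc42, was called higher for miR-574-3p. Its ratios there were 0.31, 0.34 and 0.25 on the 3 arrays (limma, adjusted p = 0.0210). ARHGAP1 was also called higher for miR-565 (0.22, adjusted p = 0.0488), with 0.48 on replicate 1 against 0.13 and 0.04 on the others. CFL1, the actin-severing protein cofilin, was called lower for miR-629* (-0.25), miR-565 (-0.24) and miR-181d (-0.44). ROCK1 was called lower (-0.88) and PAK2 higher (0.18) for miR-565, both being kinases downstream of small GTPases.

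The binding partners of TRIOBP other than TRIO gave 1 call in 6 tested genes. HECTD3, a ubiquitin ligase that acts on TRIOBP, was called lower for miR-181d (-1.08 ± 0.21, limma, adjusted p = 0.0109), as were 2.81% of all probes. None of the 6 was called for miR-574-3p, where 1 had an unadjusted p under 0.05. Over all probes 2.78% were called higher and 2.59% lower for miR-574-3p. Among 5 TRIO partners, PTPRF, the receptor phosphatase LAR through which TRIO was identified, was called higher for all 5 miRNAs, at 0.19 to 0.28. With the same sign for all 5, the PTPRF ratio cannot be told apart from an effect of the dye. FLNA, the actin crosslinker filamin A, was called lower for miR-629* (-0.45), miR-565 (-0.31) and miR-181d (-0.54), and PTK2, the focal adhesion kinase, higher for miR-181d (0.23).

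Among 11 tested actin-bundling and stereocilia proteins, ACTN1, the crosslinker alpha-actinin-1, was called lower for miR-629* (-0.23), miR-565 (-0.33) and miR-181d (-0.28). ESPN, the bundling protein espin, was the 1 member called for miR-574-3p, but its signals there were not well above background in either channel on any of the 3 arrays and no fold is given. Of the 10 actins and filament-coating proteins, the cytoplasmic actins ACTB and ACTG1 were called higher for all 5 miRNAs. ACTG1 had 0.40, 0.47 and 0.48 on the miR-574-3p arrays (mean 0.45 ± 0.05, adjusted p = 0.000327) and means of 0.21 to 0.23 with the others. ACTB had means of 0.22 to 0.36. TPM2, a tropomyosin, was called lower for miR-629* (-0.29), miR-565 (-0.19) and miR-181d (-0.18), and MYH9, the heavy chain of nonmuscle myosin IIA, higher for miR-766 (0.22). A ratio of the same sign with all miRNAs cannot be told apart from an effect of the dye.

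The genes whose ratios over the 15 arrays were most like those of A_23_P17855 were sought among 26333 probes well above background throughout. Among the highest Pearson's r were those of GRLF1 (0.98), now named ARHGAP35, a GTPase-activating protein, FGFRL1 (0.98), MGRN1 (0.98), a ubiquitin ligase, and HGSNAT (0.96), a lysosomal acetyltransferase. SPIN1 and PSME2 were among the lowest, each at -0.98. With A_23_P17855 near 2.3 on 3 arrays and near 0 on the rest, these values mostly follow the contrast of miR-574-3p with the other miRNAs. Over the 12 other arrays r was 0.91 for GRLF1, 0.62 for FGFRL1, 0.80 for MGRN1 and 0.58 for HGSNAT. GRLF1 had a mean ratio of 0.69 (log2) with miR-574-3p and of -0.55 to -0.30 with the others. A_23_P408328 had r = 0.91 over the 15 arrays, and A_24_P221885 had r = -0.00.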

How the data were processed

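Labeled RNA of 15 dual-color whole human genome arrays was scanned and the authors deposited the output of Agilent Feature Extraction 9.5.3. The deposited intensity values are processed signals, which the software had background-corrected and dye-normalized, and mean signals with local backgrounds. The authors' files also give the log10 ratio and its error, a score of the software's error model. The deposited series table holds the same log10 ratio.

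Log2 ratios (Cy5 over Cy3) were taken from the processed signals without control spots and outlier spots, and fitted in limma 3.58.1 (R 4.3.3; lmFit, eBayes with an intensity trend) with 1 coefficient per miRNA. P-values were adjusted by Benjamini-Hochberg over the 31349 probes that 1 or both channels held well above background on 3 or more arrays, and called means an adjusted p under 0.05. A gene with several probes was read from its brightest. Channels were compared within a dye after quantile normalization. Correlations used 100000 permutations. The fit was tested on simulated data with each array drawn independently. Of probes changed by a log2 of 1 with miR-574-3p, 71.2% were recovered, and of those changed by 2, 88.8%. Correlation within a slide was not simulated, so that the simulation says nothing about calls that depend on the slide. Precision is limited by the number of arrays.

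The members and gene lists were chosen with earlier results of these data known, and the channel F test and the 12-array correlations were added after the values were seen. Named are all TRIOBP and TRIO probes, 5 set partners, up to 4 called genes per list, tested neighbors and the 5 highest and 3 lowest by likeness. Some genes that this rule or the marker list names are not reported here. Coordinates are those of the files, and RefSeq (GRCh38.p14) gave names and miRNA sequences only. The alternatives were normexp (offset 50) with loess, median centering, the series table, error weighting, 3 arrays only, no trend, replicate and slide blocks, other filters, outlier spots kept, and arrays left out. The numbers do not pair the arrays: deviations of arrays with the same number had a median correlation of 0.06 (-0.40 to 0.51).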

Additional observations from a re-analysis of the deposited data

Results flagged for a closer look

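For A_23_P17855 of TRIOBP, all 3 arrays of miR-574-3p had a log2 ratio above 0 and all 3 of miR-629*, and of miR-181d, one below 0. The means differed by 2.50 from miR-629* and by 2.54 from miR-181d. For A_23_P408328 the miR-574-3p arrays were likewise above 0 and those of miR-766, miR-629* and miR-181d below 0, with differences of 0.68, 0.72 and 0.75. These differences were not tested, since the probes were chosen from the miR-574-3p contrast. The share of all probes with such a split of signs is not given here. Groups of 3 arrays are too small for a check of single outlying arrays.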

How the results depend on the processing

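Over the log2 ratios of the 6 member probes with the 5 miRNAs, 379 of 444 alternative values kept their direction and their side of the threshold, 26 gained and 22 lost the call, 15 turned in sign and 2 moved by more than the replicate SD. All 36 alternatives of the F test over the 4 other miRNAs kept their side. For A_23_P17855 the miR-574-3p ratio ran from 2.25 to 2.41 when single arrays were left out, miR-766 from -0.15 to -0.01, miR-629* from -0.21 to -0.17, miR-565 from -0.17 to 0.11 and miR-181d from -0.32 to -0.11. With only the arrays of the miRNA its miR-629* ratio of -0.19 was called (adjusted p = 0.0223), in a fit that called 7.4% of all probes lower. Its miR-565 ratio, 0.00, turned to -0.072 with normexp and loess, -0.014 with median centering and -0.00080 with error weighting, and was not called in any of them. Its antagomir difference on the miR-574-3p arrays ran from -2.71 to -2.58 with single arrays left out and was -2.74 on slide 3, and its overexpressing difference ran from -0.19 to -0.16.

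Other signs turned as well. For A_24_P221885 with miR-181d the ratio became 0.0040 under normexp and loess and 0.15 in the slide block, and its overexpressing difference, -0.38, was 0.37 on slide 3. For TRIO, A_24_P42603 with miR-565 became -0.024 under normexp and loess, and the overexpressing difference of A_24_P913431 became 0.033 as deposited. Leaving out single arrays spanned 0 for several ratios. A_24_P221885 ran from -0.80 to 0.13 with miR-574-3p, -0.67 to 0.062 with miR-766 and -0.19 to 0.083 with miR-181d, A_23_P408328 from -0.26 to 0.075 with miR-565, TRIO A_24_P42603 from -0.013 to 0.018 with miR-574-3p, TRIO A_23_P425880 from -0.054 to 0.025 with miR-565 and -0.18 to 0.074 with miR-181d, and the overexpressing difference of A_24_P913431 from -0.043 to 0.012.

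The number of listed genes called moved most. In the slide block it was 1 for miR-574-3p, 0 for miR-766, miR-629* and miR-565, and 2 for miR-181d, the consensus correlation being 0.63. When all probes of a gene were averaged it was 3 for miR-574-3p, 1 for miR-766, 10 for miR-565 and 8 for miR-181d. With arrays left out, replicate 1 of miR-565 included, it ran from 1 to 28 for miR-574-3p, 0 to 26 for miR-766, 2 to 32 for miR-629*, 16 to 27 for miR-565 and 1 to 46 for miR-181d, the highest being without replicate 1 of miR-565 except for miR-565 itself. In the replicate block fit it was 4, 1, 8, 16 and 11 in the same order, the miR-574-3p ratio of A_23_P17855 was 2.31, and the miR-574-3p call of TRIO A_23_P425880 was lost (adjusted p = 0.0699). The same-number arrays do not pair. The TRIO calls were lost under 9 alternatives for A_23_P425880 with miR-574-3p, and under 7 for A_24_P42603 and 6 for A_24_P913431 with miR-629*. The cause of these changes was not tested.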
